A study of Mus musculus with 33 samples.

Results

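The receptors for TGF-beta and activin were followed across the 3 count tables of the series by their gene symbols: the type I receptors Tgfbr1 and Acvr1b, the type II receptors Tgfbr2, Acvr2a and Acvr2b, and the co-receptors Tgfbr3 and Eng. These are 7 of 26621 gene symbols, and each symbol had a row in every table. RNA came from neural stem cells of the hippocampus, grown in culture from mice of postnatal day 0.5 in medium with bFGF and EGF. The RNA-seq libraries carry the genotype label Nestin-cKO with Ythdf2-cKO in the title, a conditional knockout of the m6A reader Ythdf2 (called labelled cKO here), or Nestin-WT with Ythdf2-WT (WT here). Cells of both genotypes were sampled at 0, 2 and 4 h of 5 µM actinomycin D, which blocks transcription, with 3 libraries per genotype and hour. From untreated Nestin-WT cells, RNA bound by an m6A antibody was set beside its input (3 libraries each), and RNA pulled down with a YTHDF2 antibody was set beside an IgG pull-down and an input (3 libraries each). The series asks how m6A and its reader act on TGF-beta signalling components and the change to quiescence. The labels do not say whether replicates came from separate animals, so p-values measure the spread between these libraries, which may be technical.

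TGF-beta and activin are secreted dimers that bind a type II receptor kinase, which then phosphorylates a type I receptor kinase. TGFBR2 is the type II and TGFBR1 the type I receptor for TGF-beta, while ACVR2A or ACVR2B pairs with ACVR1B for activin. The activated type I receptor phosphorylates SMAD2 and SMAD3, which enter the nucleus with SMAD4. Betaglycan (Tgfbr3) presents TGF-beta ligands to TGFBR2, and endoglin (Eng) is a co-receptor best known from endothelium. In the brain, TGF-beta ligands are known for holding back the division of neural stem cells. YTHDF2 binds m6A-marked transcripts and is known for speeding their decay.

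The RNA-seq libraries held 10257329 to 21353383 counts each. Those of the m6A series held 12892222 to 28334300, and those of the YTHDF2 series 8419106 to 23097887. The Ythdf2 transcript went against the genotype label: at 0 h it averaged 1629 ± 1297 CPM in libraries labelled cKO and 243 ± 21.4 CPM in WT libraries (SD, n = 3 each). At 2 h it averaged 1196 ± 99.3 CPM in libraries labelled cKO and 74.6 ± 11.7 CPM in WT libraries. At 4 h these means were 1404 ± 37.0 CPM and 70.6 ± 15.6 CPM. Counts per gene cannot show whether a deleted exon is present. Directions between genotypes therefore follow the labels alone. Stem and progenitor cell markers summed to 7268 to 11099 CPM in libraries labelled cKO and 12713 to 14610 CPM in WT libraries at 0 h. Of 11 tested, 4 were called lower and 1 higher, where 9.89% and 7.71% of all tested genes were. Fibroblast and meningeal markers summed to 33.3 to 107 CPM in libraries labelled cKO and 14.3 to 27.8 CPM in WT libraries. Of that list 8 of the 12 tested markers were called higher, where 7.71% of all tested genes were, a comparison whose limit is given below. Oligodendrocyte lineage markers summed to 115 to 224 CPM in libraries labelled cKO and 398 to 542 CPM in WT libraries. Astrocyte markers summed to 523 to 612 CPM in libraries labelled cKO and 962 to 1328 CPM in WT libraries, and neuron markers summed to 54.4 to 66.7 CPM in libraries labelled cKO and 191 to 244 CPM in WT libraries. Of these lists 5 of 8, 3 of 6 and 4 of 8 tested markers were called lower, where 9.89% of all tested genes were, and 2 neuron markers were called higher. Their part in the lower Tgfbr1 and Acvr2a given below was not tested. Endothelial markers summed to 1.49 to 3.45 CPM in libraries labelled cKO and 1.72 to 4.21 CPM in WT libraries, with Cdh5 and Cldn5 at 0 in both groups. Microglial and macrophage markers summed to 16.2 to 17.9 CPM in libraries labelled cKO and 9.64 to 14.8 CPM in WT libraries. Of those, 6 of 10 were at 0 throughout each group, and 0 of 2 tested were called. In the YTHDF2 series, titles and descriptions exchange the names Input and YTHDF2. The tables' column names match the descriptions, so those were used, and every direction of YTHDF2 against input is reversed if the titles hold.

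At 0 h the 7 transcripts spanned a wide range of TPM, a unit that corrects for transcript length. In libraries labelled cKO, Tgfbr1 (9.36 ± 1.26 TPM) and Acvr2a (9.10 ± 2.44 TPM) overlapped at the top, and Tgfbr2 ranked 3 of 7 at 2.78 ± 1.35 TPM (SD, n = 3 each). There Acvr2b followed at 0.927 ± 0.850 TPM and Tgfbr3 at 0.600 ± 0.377 TPM, each overlapping its neighbour above. Below them, Acvr1b at 0.0980 ± 0.101 TPM and Eng at 0.0307 ± 0.0532 TPM overlapped each other. In WT libraries, Tgfbr1 led at 20.0 ± 1.56 TPM, ahead of Acvr2a at 16.0 ± 0.949 TPM. Acvr2b was next there at 1.93 ± 0.456 TPM, before Tgfbr2 at 0.785 ± 0.370 TPM, Tgfbr3 at 0.384 ± 0.0134 TPM, Acvr1b at 0.204 ± 0.0699 TPM and Eng at 0.0290 ± 0.0255 TPM. No neighbours in this order overlapped in the WT libraries. The type II TGF-beta receptor thus ranked 3 of 7 in libraries labelled cKO and 4 of 7 in WT libraries.

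The inputs of the pull-down series, also from WT cells without the drug, gave another order further down. Acvr1b, the type I activin receptor, was at 3.83 ± 0.916 TPM in the m6A inputs and 2.08 ± 0.414 TPM in the YTHDF2 inputs, against 0.157 to 0.284 TPM in the WT 0 h RNA-seq libraries. In counts, Acvr1b had 94, 110 and 123 in the m6A inputs and 4, 3 and 8 in the WT 0 h libraries. Tgfbr2 likewise was at 2.57 ± 0.855 TPM in the m6A inputs and 2.504 ± 0.346 TPM in the YTHDF2 inputs, above its 0.429 to 1.17 TPM in WT 0 h libraries. Tgfbr1 and Acvr2a were lower in the inputs: Tgfbr1 was at 12.4 ± 0.253 TPM and Acvr2a at 5.94 ± 0.310 TPM in the m6A inputs. The RNA-seq libraries were made by a SMART-seq2 method and the pull-down series by a modified SMART-seq3 method, so library method and batch of cells cannot be told apart here, and no test was run across tables. Tgfbr1 led in both sets of inputs, overlapping Acvr2a in the YTHDF2 inputs, and Eng was lowest. The YTHDF2 inputs are named here by the descriptions. If the titles hold, Acvr2a led those inputs at 7.15 ± 1.86 TPM, before Acvr2b at 3.51 ± 1.48 TPM and Tgfbr1 at 2.99 ± 1.00 TPM. Tgfbr2 was then at 2.48 ± 0.109 TPM and Acvr1b at 2.29 ± 0.735 TPM, with Eng lowest again.

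**Figure D1:**
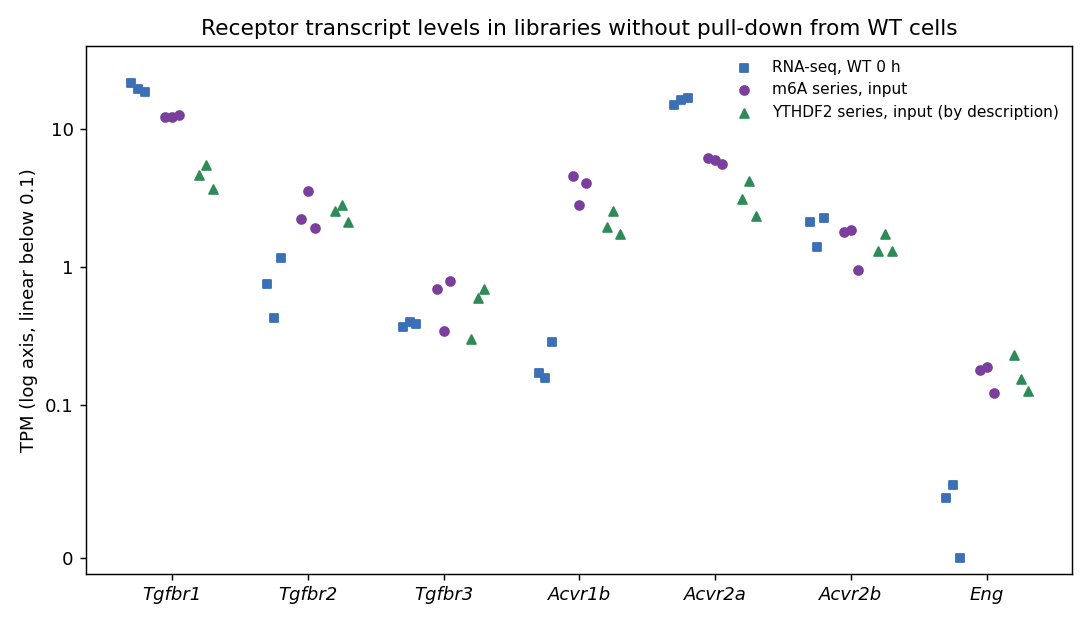
TPM of the 7 receptors (log axis, linear below 0.1) in WT libraries without pull-down. Each point is a library, with squares for RNA-seq at 0 h and circles for inputs of the m6A series. Triangles are inputs of the YTHDF2 series, named by the sample descriptions. Acvr1b lies at 0.157 to 0.284 TPM by RNA-seq and at 2.82 to 4.60 TPM in the m6A inputs, while Tgfbr1 is highest in the RNA-seq and m6A sets.

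For the 3 receptors whose transcripts were called between genotypes, the 250 bases before the annotated start are shown, because Tgfbr1 and Acvr2a were lower and Tgfbr2 was higher in libraries labelled cKO, as given below. The sequences are RefSeq's for GRCm38.p6, read in the direction of the gene. Tgfbr1 lies at chr4:47353222-47414926 on the plus strand (window chr4:47352972-47353221), Acvr2a at chr2:48814109-48903264 on the plus strand (window chr2:48813859-48814108) and Tgfbr2 at chr9:116087695-116175363 on the minus strand (window chr9:116175364-116175613). Capitals mark the GC box GGGCGG or its reverse complement CCGCCC.
Tgfbr1: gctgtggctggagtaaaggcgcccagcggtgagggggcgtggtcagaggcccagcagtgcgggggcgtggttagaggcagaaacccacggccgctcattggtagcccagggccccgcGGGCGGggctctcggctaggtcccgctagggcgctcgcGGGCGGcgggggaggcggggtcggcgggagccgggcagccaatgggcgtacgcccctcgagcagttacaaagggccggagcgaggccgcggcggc
Acvr2a: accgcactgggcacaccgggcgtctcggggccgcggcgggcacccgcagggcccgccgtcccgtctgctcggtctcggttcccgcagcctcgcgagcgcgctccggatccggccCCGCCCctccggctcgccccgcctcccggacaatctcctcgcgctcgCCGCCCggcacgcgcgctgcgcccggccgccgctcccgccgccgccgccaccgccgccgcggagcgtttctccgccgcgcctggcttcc
Tgfbr2: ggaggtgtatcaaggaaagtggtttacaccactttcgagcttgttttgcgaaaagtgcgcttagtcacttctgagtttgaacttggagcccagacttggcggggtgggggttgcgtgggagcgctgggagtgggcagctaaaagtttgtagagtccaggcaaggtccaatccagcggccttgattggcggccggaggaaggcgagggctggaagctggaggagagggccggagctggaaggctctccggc
The GC box occurred 2 times in the Tgfbr1 window, 2 times in the Acvr2a window and 0 times in the Tgfbr2 window. Of 32851 windows of this length in the same table, 10756 (32.7%) held it. The windows were 74.8% G or C for Tgfbr1, 82% for Acvr2a and 58.4% for Tgfbr2, with 29, 49 and 12 CpG dinucleotides in that order of genes. A second Tgfbr1 start in the table, at chr4:47385966-47386215, held no GC box. Acvr1b had 4 matches, Acvr2b 3 and Eng 0, and Tgfbr3 was not in the table. The Acvr2b window (chr9:119401928-119402177) is not at the gene's annotated start but lies inside the gene (chr9:119401583-119442148). A match is a run of letters and not a measured binding site.

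Between genotypes at 0 h, Tgfbr1 was lower in libraries labelled cKO. Normalized to the TMM-scaled library size, Tgfbr1 had 31.0, 30.9 and 21.7 CPM in libraries labelled cKO, against 59.3, 54.5 and 53.9 CPM in WT libraries. The groups did not overlap, and every library labelled cKO was below the lowest WT library. The log2 difference was −1.01 ± 0.21 (SE; edgeR's quasi-likelihood test, adjusted p = 0.00575), and it was the only call among the 5 receptors that passed the low-count filter, where 9.89% of 14029 genes were called lower and 7.71% higher. It was past the threshold in 23 of 24 fits that left out a library or all libraries of a genotype with the same replicate number, and without those of WT replicate 1 the adjusted p was 0.0684.

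Acvr2a, which binds activin and several BMP ligands, lay lower as well at 0 h without passing the threshold. It had 36.5, 25.6 and 19.5 CPM in libraries labelled cKO, against 41.0, 45.1 and 48.7 CPM in WT libraries. The groups did not overlap, and the library of replicate 1 labelled cKO came closest to WT. The log2 difference was −0.72 ± 0.25 (SE; edgeR, adjusted p = 0.0524). The call depended on the tool, since DESeq2 gave an adjusted p of 0.0431 and limma on log2(TPM + 1) gave 0.0164, and without replicate 1 labelled cKO the difference was −0.99 (edgeR, adjusted p = 0.00527).

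Tgfbr2, the receptor that binds TGF-beta first, lay the other way. At 0 h it had 3.81, 6.98 and 9.64 CPM in libraries labelled cKO, against 1.75, 1.01 and 2.85 CPM in WT libraries. These are 46, 93 and 121 counts in libraries labelled cKO and 26, 12 and 48 counts in WT libraries. The groups did not overlap, and the spread within libraries labelled cKO was wide. The log2 difference was 1.85 ± 0.66 (SE; edgeR, adjusted p = 0.0621), so Tgfbr2 was not called at 0 h, while DESeq2 gave an adjusted p of 0.0324 and limma on log2(TPM + 1) gave 0.0109.

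At 2 h of actinomycin D, Tgfbr2 was higher in libraries labelled cKO and both Tgfbr1 and Acvr2a were lower. Tgfbr2 had 23, 66 and 54 counts in libraries labelled cKO and 2, 2 and 1 counts in WT libraries. In CPM it was at 1.06, 3.57 and 4.12 in libraries labelled cKO, against 0.117, 0.155 and 0.0524 in WT libraries, with no overlap. The log2 difference was 4.70 ± 0.90 (SE; edgeR, adjusted p = 0.00343). The fitted value rests on 5 WT counts in all, and the ratio of summed counts per library size was 26.4, with a 95% exact interval of 11.0 to 82.4 that covers counting error only. At 0 h the same ratio was 3.47 (2.71 to 4.48), from 260 counts in libraries labelled cKO and 86 in WT libraries. The Tgfbr2 call at 2 h held in 24 of 24 fits that left out a library or replicate. On the log2(TPM + 1) scale, which compresses low values, the difference was 0.92 (limma, adjusted p = 0.0272).

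Tgfbr1 had 16.2, 15.1 and 11.4 CPM in libraries labelled cKO at 2 h, against 25.5, 29.5 and 26.4 CPM in WT libraries. The groups were apart, with a log2 difference of −0.93 ± 0.21 (SE; edgeR, adjusted p = 0.00929). Acvr2a had 14.1, 8.75 and 11.9 CPM in libraries labelled cKO at 2 h, against 20.7, 22.2 and 22.0 CPM in WT libraries. The groups were again apart, with a log2 difference of −0.90 ± 0.25 (SE; edgeR, adjusted p = 0.0237). At this hour 8.52% of the tested genes were called higher and 8.54% lower. Leaving out libraries or replicates ended the Tgfbr1 call in 2 of 24 fits (WT replicate 2, or the 2 h library of replicate 3 labelled cKO; largest adjusted p = 0.0785) and the Acvr2a call in 9 of 24 (any WT replicate or WT 2 h library, replicate 2 labelled cKO, and the 2 h libraries of replicates 2 and 3 labelled cKO; largest adjusted p = 0.136).

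At 4 h the calls were Tgfbr2 and Acvr2a, 2 of 5 tested receptors, where 20.2% of genes were called, 11% higher and 9.11% lower. Tgfbr2 had 0.229, 1.41 and 2.76 CPM in libraries labelled cKO, against 0.377, 0.382 and 0.0647 CPM in WT libraries. These ranges overlapped, because replicate 1 labelled cKO held 4 counts and lay below WT replicates 1 and 2. The log2 difference was 2.42 ± 0.82 (SE; edgeR, adjusted p = 0.0467), and the ratio of summed counts was 5.51 (2.90 to 11.5). The Tgfbr2 call held only without replicate 1 labelled cKO, its 4 h library, or a 0 h or 2 h library of replicates 1 and 3 labelled cKO, and was lost in the other 18 of 24 leave-out fits (adjusted p up to 0.265), while limma on log2(TPM + 1) gave a difference of 0.39 (adjusted p = 0.328). Acvr2a had 9.10, 8.57 and 6.61 CPM in libraries labelled cKO, against 12.4, 10.4 and 18.2 CPM in WT libraries, without overlap. Its log2 difference was −0.76 ± 0.26 (SE; edgeR, adjusted p = 0.0449), and the call was lost in 15 of 24 leave-out fits (adjusted p up to 0.251, without WT replicate 3). Tgfbr1 had 8.76, 11.1 and 7.33 CPM in libraries labelled cKO, against 11.5, 12.03 and 17.1 CPM in WT libraries. Its difference of −0.58 ± 0.22 did not pass (SE; edgeR, adjusted p = 0.0649).

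**Figure D2:**
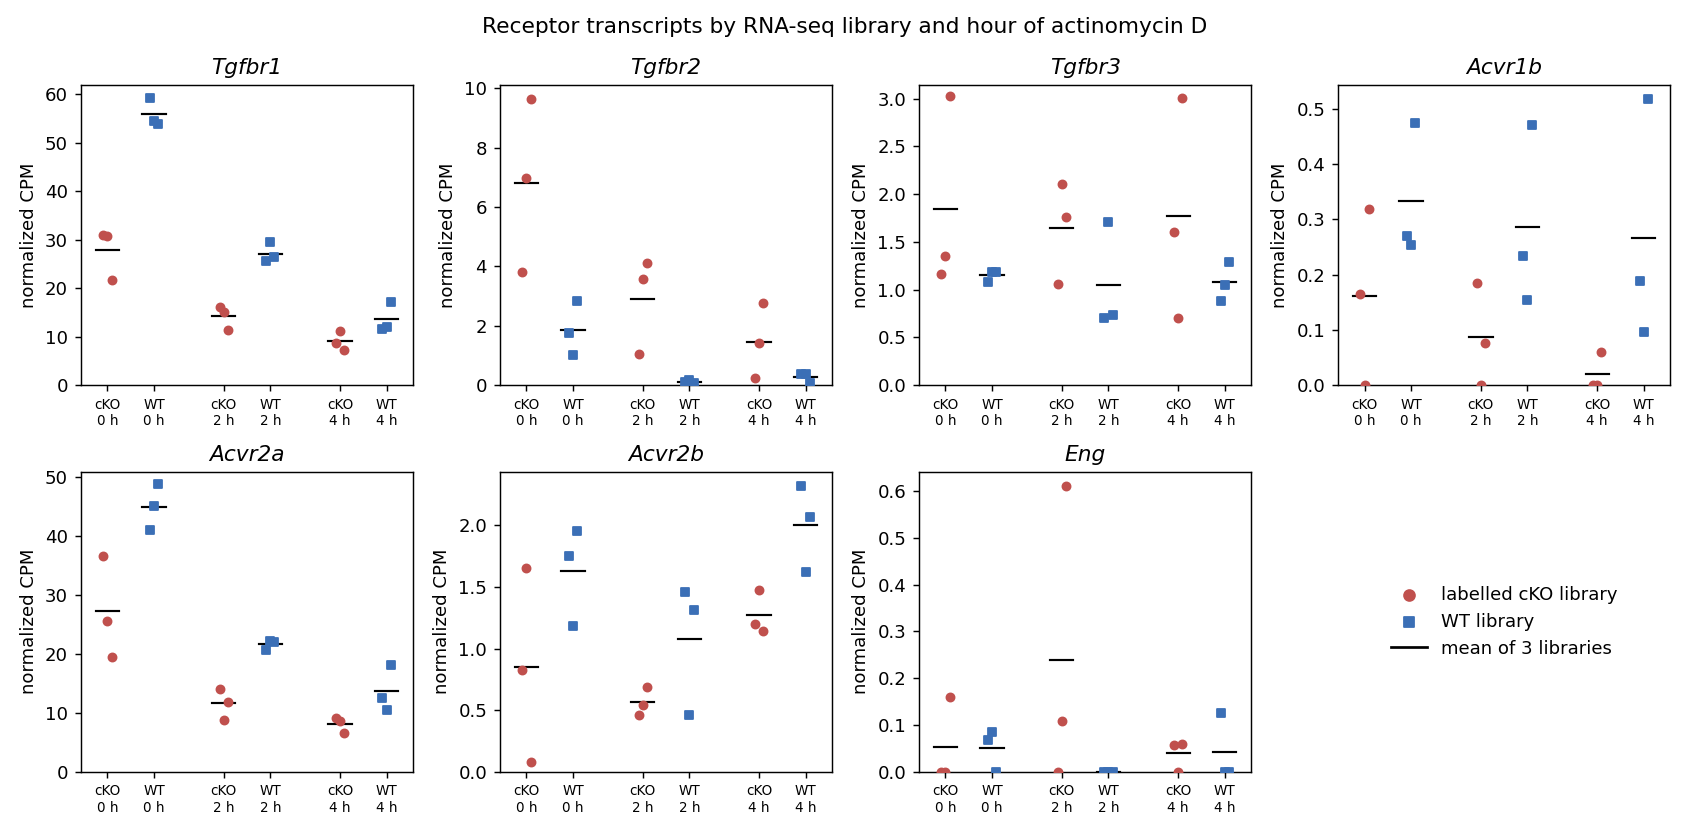
Normalized CPM of each receptor in the 18 RNA-seq libraries by genotype and hour of actinomycin D, with a linear axis for each gene; red circles are libraries labelled cKO, blue squares are WT libraries and black lines are means of 3. At 0 h Tgfbr1 is at 21.7 to 31.0 CPM in libraries labelled cKO and 53.9 to 59.3 CPM in WT libraries, and Tgfbr2 is at 3.81 to 9.64 CPM in libraries labelled cKO and 1.01 to 2.85 CPM in WT libraries.

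Fibroblast, meningeal and pericyte markers followed the order of Tgfbr2 among the libraries labelled cKO at each hour, but not among the WT libraries. In replicates 1, 2 and 3 labelled cKO, the fibroblast and meningeal list of 13 genes summed to 33.3, 76.6 and 107 CPM at 0 h. Tgfbr2 was at 3.81, 6.98 and 9.64 CPM there. In WT replicates the sums were 14.3, 27.8 and 25.0 CPM at 0 h, beside Tgfbr2 at 1.75, 1.01 and 2.85 CPM, so the highest sum stood with the lowest Tgfbr2. At 2 h the sums were 26.7, 78.4 and 110.4 CPM in libraries labelled cKO and 16.7, 26.8 and 25.3 CPM in WT libraries. At 4 h the sums were 33.9, 69.2 and 107 CPM in libraries labelled cKO and 22.1, 41.1 and 32.1 CPM in WT libraries. Of its 12 tested markers, 8 were called higher at 0 h (median log2 4.15, against −0.01 over all tested genes), and no marker of the list was at 0 throughout either 0 h group. In WT replicates 1, 2 and 3 at 0 h, 2, 2 and 1 of the 13 markers had 0 counts. Markers this low in WT could pass the low-count filter through the libraries labelled cKO alone, which limits the comparison with all genes. The pericyte list of 6 genes summed to 3.64, 6.68 and 8.36 CPM at 0 h in replicates 1, 2 and 3 labelled cKO. In WT replicates it summed to 3.71, 5.98 and 4.68 CPM, and 0 of its 2 tested markers were called at 0 h. In bulk RNA, more cells of a type and more RNA per cell cannot be told apart. The part of these markers in the Tgfbr2 difference was not tested. Without the libraries of replicate 3 labelled cKO, where the sums were highest, the Tgfbr2 difference was 1.51 at 0 h (edgeR, adjusted p = 0.106), 4.38 at 2 h (adjusted p = 0.00565) and 1.57 at 4 h (adjusted p = 0.226). Without replicate 1 labelled cKO, where they were lowest, it was 2.12 at 0 h (adjusted p = 0.00329), 5.11 at 2 h (adjusted p = 3.71e-05) and 2.93 at 4 h (adjusted p = 0.00138).

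**Figure D3:**
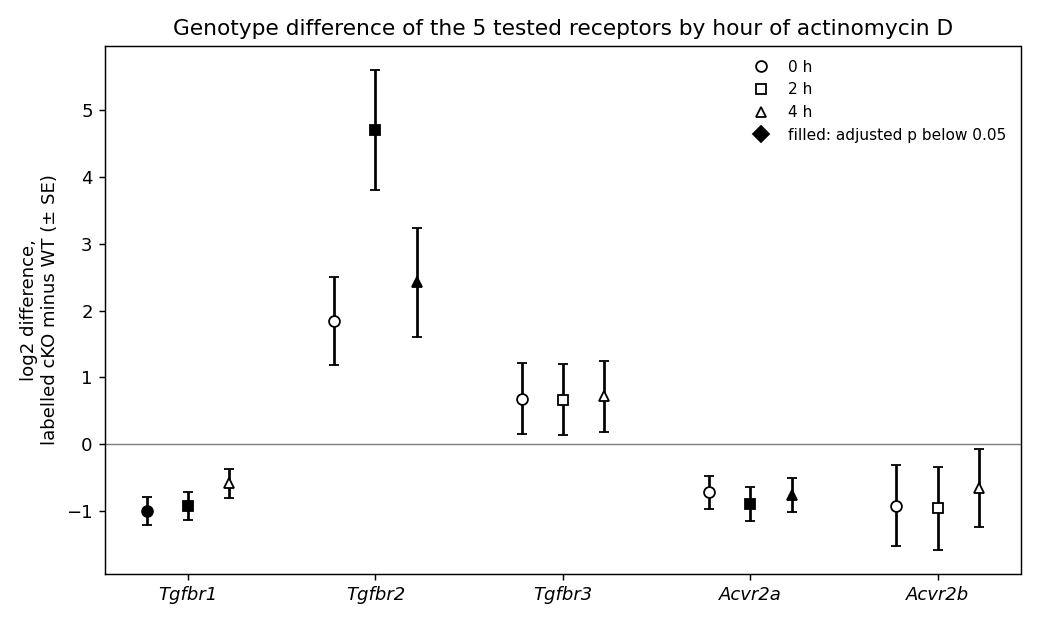
Log2 difference between libraries labelled cKO and WT libraries (± SE, edgeR) for the 5 receptors past the low-count filter, at 0 h (circles), 2 h (squares) and 4 h (triangles); filled symbols passed an adjusted p of 0.05. Tgfbr2 is above 0 at each hour (1.85, 4.70 and 2.42) and Tgfbr1 and Acvr2a are below 0 at each hour, with Tgfbr1 filled at 0 and 2 h.

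The balance of the TGF-beta receptor pair was read as the ratio of Tgfbr1 to Tgfbr2 TPM within a library, a measure added after the values were seen. At 0 h the ratio was 6.87, 3.73 and 1.90 in libraries labelled cKO, against 28.6, 45.6 and 16.0 in WT libraries. Every library labelled cKO was below every WT library. The mean log2 ratio differed by −2.91. As the ratio was chosen with the values of both genes known, it is given as a description. An exact test over 20 splits of the 0 h libraries gave p = 0.1, the smallest it can give, so it cannot decide whether the groups differ. By 2 h the ratio was 12.9, 3.59 and 2.35 in libraries labelled cKO, against 185, 161 and 426 in WT libraries, the WT values resting on 1 or 2 Tgfbr2 counts each. At 4 h the groups overlapped, at 32.3, 6.65 and 2.24 in libraries labelled cKO and 25.8, 26.6 and 224 in WT libraries. The ratio of Tgfbr1 to Acvr2a, in contrast, was between 0.850 and 1.73 in the 18 libraries.

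**Figure D4:**
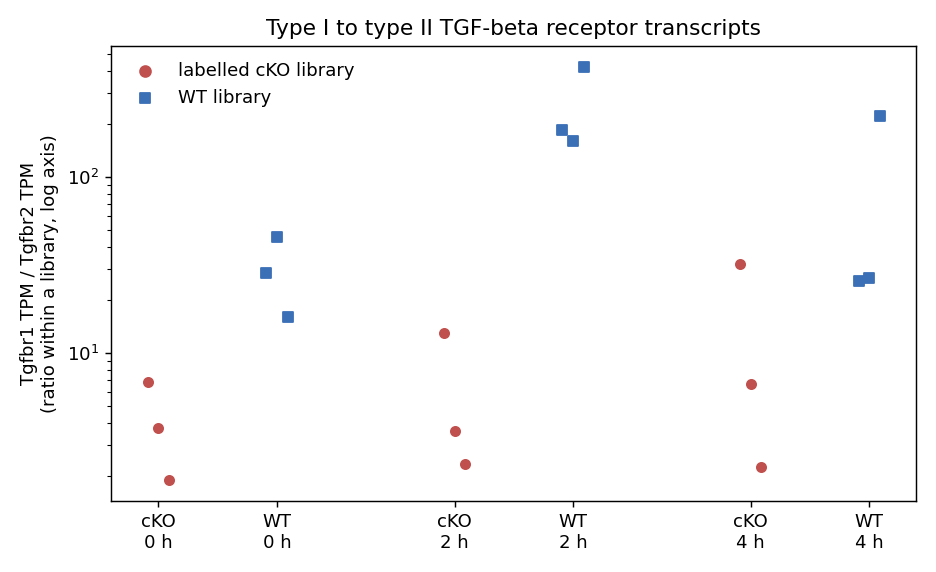
Ratio of Tgfbr1 to Tgfbr2 TPM (log axis) in each RNA-seq library by genotype and hour of actinomycin D; circles are libraries labelled cKO and squares are WT libraries. At 0 h the ratio is 1.90 to 6.87 in libraries labelled cKO and 16.0 to 45.6 in WT libraries, and at 4 h the groups overlap.

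The remaining receptors were not called between genotypes. Acvr2b, the second type II receptor for activin, had 10, 22 and 1 counts in libraries labelled cKO and 26, 14 and 33 counts in WT libraries at 0 h, with overlapping ranges. Its log2 difference was −0.93 ± 0.61 at 0 h, −0.96 ± 0.62 at 2 h and −0.66 ± 0.58 at 4 h (SE; edgeR, adjusted p = 0.286, 0.284 and 0.431 by hour), and at 4 h its groups, 1.142 to 1.47 CPM in libraries labelled cKO and 1.62 to 2.32 CPM in WT libraries, did not overlap. Betaglycan (Tgfbr3) had 14, 18 and 38 counts in libraries labelled cKO and 16, 14 and 20 counts in WT libraries at 0 h. The Tgfbr3 difference was 0.68 ± 0.53, 0.67 ± 0.53 and 0.72 ± 0.53 at 0, 2 and 4 h (SE; edgeR, smallest adjusted p = 0.349), and its groups overlapped at each hour. Acvr1b and Eng were below the filter, and in a fit without it neither was called by edgeR (smallest adjusted p = 0.128 for Acvr1b, at 4 h, and 0.125 for Eng, at 2 h). Acvr1b summed to 6, 5 and 1 counts at 0, 2 and 4 h in libraries labelled cKO, against 15, 15 and 12 counts in WT libraries. Per library size the Acvr1b ratio was 0.459 (0.146 to 1.25) at 0 h, 0.307 (0.0873 to 0.889) at 2 h and 0.0701 (0.00164 to 0.474) at 4 h, with 95% exact intervals for counting error only. Eng, the endothelial co-receptor, had 2, 10 and 2 counts at 0, 2 and 4 h in libraries labelled cKO, 8 of the 10 in a single library, against 2, 0 and 2 counts in WT libraries.

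Under actinomycin D, transcripts with fast turnover fall relative to the rest of the RNA. In WT cells Tgfbr1, Tgfbr2 and Acvr2a were lower at 4 h than at 0 h, 3 of the 5 tested receptors, where 39.9% of 14029 genes were called, 24.2% lower and 15.6% higher. Tgfbr1 averaged 13.6 ± 3.12 CPM at 4 h and 55.9 ± 2.98 CPM at 0 h (SD, n = 3 each), a log2 difference of −2.04 ± 0.22 (SE; edgeR, adjusted p = 1.89e-06). Acvr2a averaged 13.7 ± 4.03 CPM at 4 h and 44.9 ± 3.87 CPM at 0 h, a log2 difference of −1.71 ± 0.26 (SE; edgeR, adjusted p = 5.31e-05). Tgfbr2 averaged 0.274 ± 0.182 CPM at 4 h and 1.87 ± 0.923 CPM at 0 h, a log2 difference of −2.79 ± 0.82 (SE; edgeR, adjusted p = 0.0119). None of these groups overlapped, and the Tgfbr2 call was lost in 4 of 24 leave-out fits (WT replicates 1 and 3, and the 0 h and 4 h libraries of WT replicate 3; largest adjusted p = 0.206). Tgfbr3 (−0.09 ± 0.55) and Acvr2b (0.30 ± 0.58) were not called, and the Acvr2b value turned negative with library size alone, with TPM and with ribosomal protein scaling.

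The same receptors were lower at 4 h in libraries labelled cKO, where 30.1% of genes were called, 18% lower and 12.1% higher. Tgfbr1 averaged 9.05 ± 1.89 CPM at 4 h and 27.8 ± 5.34 CPM at 0 h in these libraries (SD, n = 3 each), a log2 difference of −1.62 ± 0.22 (SE; edgeR, adjusted p = 3.19e-05). The Acvr2a difference was −1.75 ± 0.26 (SE; edgeR, adjusted p = 7.69e-05), with 8.09 ± 1.31 CPM at 4 h and 27.2 ± 8.61 CPM at 0 h. The Tgfbr2 difference was −2.21 ± 0.67 (SE; edgeR, adjusted p = 0.0196), with 1.47 ± 1.27 CPM at 4 h and 6.81 ± 2.92 CPM at 0 h, and it was lost in 4 of 24 leave-out fits (replicate 2, its 4 h library, the 4 h library of replicate 1 and the 0 h library of replicate 3; largest adjusted p = 0.124). Within each genotype the 4 h and 0 h libraries of these 3 genes did not overlap. Tgfbr3 (−0.06 ± 0.52) and Acvr2b (0.56 ± 0.61) were not called. The scaling matters for the size of these values: ribosomal protein scaling moved the median over all tested genes to −0.73 in WT and −0.65 in libraries labelled cKO. With that scaling Tgfbr1 differed by −2.78 in WT and −2.34 in libraries labelled cKO.

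At 2 h, a comparison added after the values were seen, Tgfbr1, Tgfbr2 and Acvr2a were lower than at 0 h in WT cells. In WT libraries the 2 h minus 0 h difference was −4.09 ± 0.91 for Tgfbr2 (SE; edgeR, adjusted p = 0.00463), with 2, 2 and 1 counts at 2 h and 26, 12 and 48 counts at 0 h. WT Tgfbr2 averaged 0.108 ± 0.0518 CPM at 2 h, from 5 counts, and 0.274 ± 0.182 CPM at 4 h, from 11 counts (SD, n = 3 each). These ranges overlapped, and so few counts limit the size of the 2 h difference. On the log2(TPM + 1) scale the Tgfbr2 difference was −0.76 (limma, adjusted p = 0.0461), and differences between receptors were not tested. It was −1.04 ± 0.21 for Tgfbr1 (adjusted p = 0.00227) and −1.05 ± 0.25 for Acvr2a (adjusted p = 0.00686), where 17.4% of genes were called, 13.7% lower and 3.63% higher. In libraries labelled cKO, Tgfbr1 (−0.96 ± 0.21, adjusted p = 0.0062) and Acvr2a (−1.23 ± 0.25, adjusted p = 0.00339) were called, where 9.85% of genes were called lower and 2.21% higher. Tgfbr2 was not called there (−1.24 ± 0.65, adjusted p = 0.238), but with the replicate number within each genotype as a block it was (−1.34, adjusted p = 0.0356). Among leave-out fits, only those without all libraries of a replicate number ended these calls, with adjusted p up to 0.114: WT replicate 1 for Tgfbr1, WT replicates 1 and 3 for Tgfbr2, any WT replicate for Acvr2a, and replicate 2 labelled cKO for Tgfbr1 and Acvr2a there (0.0679 and 0.0645).

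The change with time did not differ by genotype past the threshold for any tested receptor. At 4 h the genotype difference in the change was 0.42 ± 0.30 for Tgfbr1, 0.58 ± 1.02 for Tgfbr2, −0.03 ± 0.35 for Acvr2a, 0.27 ± 0.83 for Acvr2b and 0.04 ± 0.75 for Tgfbr3 (log2, SE). The count of receptors called was 0 of 5 by edgeR and limma on log2(TPM + 1) and 0 of the 2 to which DESeq2 gave an adjusted p. By edgeR 0 of 5 had an unadjusted p below 0.05. Of all tested genes 0.0214% (3 genes) were called by edgeR, and a fit blocked on replicate number within each genotype called 296. At 2 h the Tgfbr2 term was 2.86 ± 1.13 (SE; edgeR, adjusted p = 1). It was the 1 receptor of 5 with an unadjusted p below 0.05, and 0 of 5 were called by edgeR, DESeq2 and limma on log2(TPM + 1), with 0% of all tested genes called by edgeR and 7 genes by DESeq2. On the log2(TPM + 1) scale the Tgfbr2 term at 2 h was −0.12.

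In the m6A pull-down, the abundant receptors were close to their input. Tgfbr1 had 37.9, 33.5 and 34.1 CPM in the m6A pull-down, against 36.1, 35.7 and 37.2 CPM in input, a log2 difference of −0.05 ± 0.09 (SE; edgeR, adjusted p = 0.768). Acvr2a had 17.9, 17.0 and 17.8 CPM in the m6A pull-down, against 18.3, 17.6 and 16.5 CPM in input, a log2 difference of 0.01 ± 0.11 (SE; edgeR, adjusted p = 0.961). In both genes the ranges overlapped. A value near 0 is enrichment near that of the typical transcript, since the scaling sets the middle of all genes near 0 (median 0.01). With library size alone the median moved to 0.22 and with TPM to 0.40, and the Tgfbr1 difference moved with it, to 0.17 and 0.40.

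Tgfbr2 had 6.32, 11.7 and 7.39 CPM in the m6A pull-down, against 5.58, 8.77 and 4.79 CPM in input. Each pull-down was above the input of the same number, but the ranges overlapped, and the difference of 0.40 ± 0.29 was not called (SE; edgeR, adjusted p = 0.386). Acvr1b (0.27 ± 0.24), Acvr2b (0.37 ± 0.38) and Tgfbr3 (−0.78 ± 0.38) were not called either. Eng was the 1 of 7 receptors called, where 20.3% of 14167 genes were called, 6.06% higher and 14.3% lower. It had 22, 24 and 16 counts in the m6A pull-down and 4, 8 and 4 counts in input, or 0.843, 0.796 and 0.717 CPM against 0.333, 0.347 and 0.225 CPM. The groups did not overlap, with a log2 difference of 1.36 ± 0.42 (SE; edgeR, adjusted p = 0.0487). Eng passed the low-count filter through the pull-down group, where it was higher. The call was lost with the replicate number as a block (adjusted p = 0.0555) and in 6 of 6 leave-out fits (adjusted p = 0.0958 to 0.17), while the block raised the count of called genes to 5373, against 2881 without it.

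In the YTHDF2 pull-down, named by the descriptions, Tgfbr1 was below and Acvr2a above input. Tgfbr1 had 4.99, 7.46 and 9.16 CPM with YTHDF2, against 8.32, 10.7 and 11.5 CPM with IgG and 15.0, 16.2 and 12.5 CPM in input. The YTHDF2 and input libraries did not overlap, with a log2 difference of −1.02 ± 0.25 (SE; edgeR, adjusted p = 0.00556). The call was lost with limma on log2(TPM + 1) (−0.51, adjusted p = 0.125), and YTHDF2 and IgG overlapped (−0.50 ± 0.25, adjusted p = 0.236). Acvr2a had 13.1, 19.0 and 19.9 CPM with YTHDF2, against 6.50, 14.2 and 11.4 CPM with IgG and 10.05, 12.4 and 8.03 CPM in input. Against input the Acvr2a difference was 0.77 ± 0.29 (SE; edgeR, adjusted p = 0.0466) without overlap, and it was lost in 5 of 9 leave-out fits (input 1 or 3, YTHDF2 2 or 3, or IgG 3; largest adjusted p = 0.147). These were 2 calls among 6 tested receptors, where 30.7% of 14255 genes were called higher and 17.5% lower and the median over all genes was 0.23. If the titles hold, Tgfbr1 was higher in the YTHDF2 pull-down than in input (1.02) and Acvr2a lower (−0.77).

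Against IgG no receptor was called by edgeR, DESeq2 or limma on log2(TPM + 1), where 14.3% of genes were called higher and 0.33% lower. Acvr2a (0.69 ± 0.29, adjusted p = 0.155) and Tgfbr2 (0.55 ± 0.25, adjusted p = 0.184) were the 2 with an unadjusted p below 0.05 by edgeR. With the replicate number as a block Acvr2a was called (0.73, adjusted p = 0.00549), in a fit that called 4402 genes, against 2087 without the block. Its YTHDF2 and IgG ranges overlapped, but in each replicate number Acvr2a was higher with YTHDF2 than with IgG. Tgfbr2 had 5.45, 5.20 and 4.71 CPM with YTHDF2, against 4.13, 3.69 and 2.54 CPM with IgG and 6.96, 7.04 and 6.14 CPM in input. Its YTHDF2 libraries lay above every IgG library and below every input library, and neither difference was called (adjusted p = 0.184 and 0.198). By the titles Tgfbr2 was called higher against IgG (0.94, edgeR, adjusted p = 0.0112), the Acvr2a difference was −0.072 and the Tgfbr1 difference was 0.52. Acvr2b was at 2.55 ± 0.985 CPM with YTHDF2, 2.08 ± 0.116 CPM with IgG and 1.39 ± 0.145 CPM in input (SD, n = 3 each). Its difference from input of 0.88 ± 0.37 was not called (SE; edgeR, adjusted p = 0.0676), but with the block it was (0.82, adjusted p = 0.0382). Acvr1b (−0.26 ± 0.31 against input) and Tgfbr3 (−0.42 ± 0.58) were not called, and Eng was below the filter, with 10, 14 and 6 counts with YTHDF2, 1, 24 and 3 with IgG and 10, 5 and 3 in input.

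**Figure D5:**
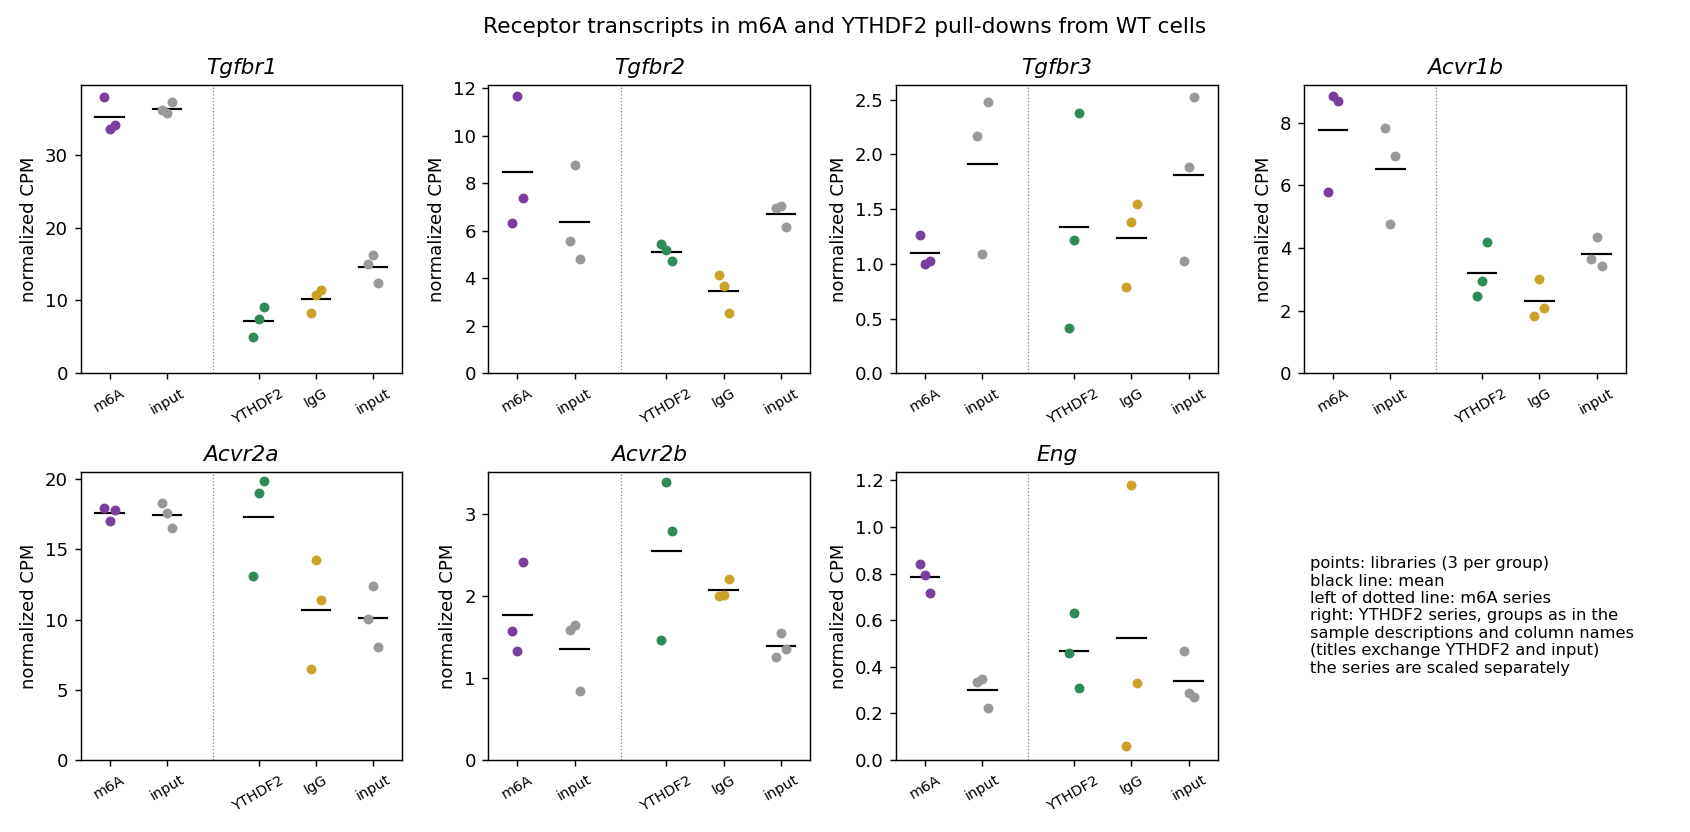
Normalized CPM of each receptor in the m6A pull-down and its input (left of the dotted line) and in the YTHDF2 pull-down, IgG pull-down and input (right), with groups of the YTHDF2 series named by the sample descriptions; points are libraries and black lines are means of 3. Tgfbr1 is at 4.99 to 9.16 CPM with YTHDF2 and 12.5 to 16.2 CPM in input, and Acvr2a is at 13.1 to 19.9 CPM with YTHDF2 and 8.03 to 12.4 CPM in input.

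Each receptor was compared with tested genes whose log2 CPM averaged 3 or more, leaving out clone, Gm, Rik and LOC names (7083 for Tgfbr1 and Acvr2a, 7084 for the others). Of these, the genes whose log2 CPM followed each receptor most closely over the 18 RNA-seq libraries are named here. For Tgfbr1 they were Pum2 and Zcchc11 (Pearson r = 0.981 each) and Zfp763 (0.971). For Acvr2a they were Zfp101 (0.982), Zfp780b (0.978) and Zfp62 (0.976), and Tgfbr1 and Acvr2a had r = 0.962, which placed Acvr2a at rank 9 of 7083 for Tgfbr1. For Tgfbr2 they were Ptchd1 (0.935), Itga5 (0.922) and Arl4c (0.920). The closest genes to Tgfbr3 and Acvr2b were looser, with Mettl21a at 0.784 and Fdps at 0.713. These libraries share genotype, hour and replicate number, so the values describe a shared pattern over the groups.

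The other genes of the pathway were read against the shares of all tested genes. Of 21 genes for ligands, latency and activation, 12 were tested at 0 h, with 5 called higher and 1 lower in libraries labelled cKO, where 7.71% and 9.89% of all tested genes were (median log2 0.72, against −0.01 over all genes). Among the higher ones were Ltbp3, which holds TGF-beta in its latent form (1.31 ± 0.22, edgeR, adjusted p = 0.00163), the activin subunit gene Inhba (4.27 ± 1.12, adjusted p = 0.0199) and Thbs1, an activator of latent TGF-beta (2.09 ± 0.58, adjusted p = 0.0223). In the pathway lists, too, genes low in WT could pass the low-count filter through the libraries labelled cKO alone. This limits the comparison of the lists with all genes. At 2 h and 4 h, Ltbp1 was higher (1.69 and 1.86) and Itgb8, a subunit of an integrin that activates TGF-beta, was lower (−1.76 and −1.83). Of 22 receptor modulators, 19 were tested at 0 h, with 3 higher and 1 lower (median −0.06), a share near the 17.6% of all tested genes called. Bambi, a decoy receptor without a kinase, was higher at 0 h (3.41 ± 0.60, edgeR, adjusted p = 0.00195), and Smurf2, a ubiquitin ligase that acts on the receptors, was lower (−0.70 ± 0.17, adjusted p = 0.0114). Of 9 tested SMADs and corepressors at 0 h 3 were called: the corepressor Ski was called higher (1.13 ± 0.25), and Skil (−0.93 ± 0.24) and Trim33 (−0.83 ± 0.26) were called lower. Of 4 other tested receptors of the superfamily, Bmpr2, a type II receptor for BMPs, was called lower at 0 h (−1.02 ± 0.26, edgeR, adjusted p = 0.015). It was called lower at 2 h (−0.86) and 4 h (−0.83) as well, and Bmpr1b was called lower at 2 h (−1.24) and 4 h (−1.56). At 4 h Acvr1, a type I receptor of the same family, was called higher (1.205, edgeR, adjusted p = 0.0386).

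With time in WT cells, 8 of the 9 tested SMADs and corepressors were called lower at 4 h (median −1.99), where 24.2% of all tested genes were, led by the ubiquitin ligase Rnf111 (−2.45 ± 0.21, edgeR, adjusted p = 1.71e-07). The BMP and activin type I receptor Acvr1 fell by 2.32 on the log2 scale (adjusted p = 0.000194). In libraries labelled cKO, 8 of these 9 were called lower as well (median −1.22), where 18% of all tested genes were, and Acvr1 differed by −1.84 (edgeR, adjusted p = 0.00138). In the YTHDF2 pull-down, Acvr1 was higher against IgG (1.45 ± 0.22, edgeR, adjusted p = 0.000649) and against input (1.44 ± 0.22, adjusted p = 0.000314). If the titles hold, the direction against input is reversed and the Acvr1 difference from IgG is 0.0029. Smad3, which the type I receptors phosphorylate, was higher with YTHDF2 against IgG (2.173 ± 0.17, adjusted p = 8.82e-06), as were Bambi (2.70 ± 0.42, adjusted p = 0.000671) and the ligand gene Tgfb2 (1.34 ± 0.22, adjusted p = 0.00109). By the titles these differences from IgG were 0.41 for Smad3, 0.68 for Bambi and 0.31 for Tgfb2, and none of these 3 was called by edgeR (adjusted p = 0.075, 0.217 and 0.293). Against IgG, 3 of 9 SMADs and corepressors, 1 of 19 modulators, 1 of 11 ligand and activation genes and 1 of 4 other receptors were called higher, where 14.3% of all tested genes were. In the m6A pull-down 1 of 13 ligand and activation genes, Itgb8, was called higher (0.41 ± 0.09, edgeR, adjusted p = 0.0111), a share near the 6.06% of all tested genes.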

How the data were processed

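RNA-seq, m6A-IP-seq and YTHDF2-RIP-seq libraries came from cultured mouse hippocampal neural stem cells. Per the submitters' processing notes, reads went through bcl2fastq 2.17.1.14, Trimmomatic 0.32 and STAR 2.5.2a against GRCm38; the sources used here do not give the counting tool, its strand setting or the annotation. The authors deposited whole-number counts and TPM values per gene and library. The counts were used in every model, and TPM for levels between genes and in an alternative.

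Each table was fitted alone with edgeR 4.0.16 (R 4.3.3): TMM factors, filterByExpr with a minimum count of 10, quasi-likelihood tests of contrasts between group means over all libraries of the table, and Benjamini-Hochberg adjustment over all tested genes with a threshold of 0.05. All model tests were two-sided. Shown CPM are TMM-normalized. Alternatives were RLE factors, library size alone, no filter, limma 3.58.1 on log2(TPM + 1), DESeq2 1.42.0, ribosomal protein scaling, a replicate block, the compared libraries alone, the titles of the YTHDF2 series, and leaving out each library or replicate number of a genotype. The fit was tested on simulated data. In RNA-seq the replicate block used numbers across genotypes for genotype differences, and numbers within each genotype for changes with time and their difference.

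Deviations of libraries with the same number correlated within the m6A series (lowest r of 3 pairs 0.236), the YTHDF2 series (0.476) and the hours of each genotype (0.309 labelled cKO, 0.348 WT), so numbers, which the labels give, were read as pairs there. Across genotypes they did not (median −0.03). The main fits and their adjusted p-values left these pairs out. Only the replicate block used them, and it changed some calls, as given with the results. The receptors, gene lists and tests were chosen with earlier results of these data known; 2 h against 0 h, the receptor ratio, the pathway lists by title and the unfiltered values of Acvr1b and Eng were added after values were seen. Named genes were the 7 receptors, Ythdf2, the 3 genes most correlated with each tested receptor, and the 3 members of each pathway list with the smallest p. Correlated genes were sought at a mean log2 CPM of at least 3, leaving out clone, Gm, Rik and LOC names. Replicates differed by more than sampling noise in each table.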

Additional observations from a re-analysis of the deposited data

How the results depend on the processing

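Tgfbr1 at 0 h kept its direction under every alternative run (−1.21 to −0.85), as did Tgfbr2 at 2 h (0.92 to 5.11). Values here are log2 differences or counts of called receptors or genes. The counts of receptors describe the fits and are not read as results about the receptors. RLE factors gave 1 receptor for YTHDF2 against input, −0.025 for Tgfbr3 against IgG, and for the 4 h interaction 0 genes and −0.033 for Tgfbr3. Library size alone gave 1 receptor between genotypes at 4 h, −0.035 for Acvr2b in WT at 4 h, 19 genes and 0.076 for Acvr2a in the 4 h interaction, 0.037 for Tgfbr3 and 0.074 for Acvr2b in the 2 h interaction, and 4920 genes and 0.17 for Tgfbr1 in the m6A pull-down. Without a filter there were 2 receptors between genotypes at 0 h (1160 genes higher and 1262 lower) and 1 at 4 h (1378 and 1311). There were 0 in the m6A pull-down (908 and 1937), and 1 gene and −0.012 for Tgfbr3 in the 4 h interaction.

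With limma on log2(TPM + 1) there were 3 receptors between genotypes at 0 h (1023 genes higher and 2429 lower) and 0 at 4 h (1207 and 1114). In the m6A pull-down limma gave 5 receptors and 8006 genes, with Tgfbr1 at 0.40. It gave −0.13 for Acvr2b in WT at 4 h and 0.079 for Acvr1b against input. For the 4 h interaction it gave 84 genes, −0.65 for Tgfbr2, −0.013 for Tgfbr3 and 0.27 for Acvr2a, and for the 2 h interaction 19 genes, −0.12 for Tgfbr2, 0.013 for Acvr2a and 0.31 for Acvr2b. DESeq2 called 3 of the 5 receptors given an adjusted p between genotypes at 0 h (1657 genes higher and 1661 lower). For YTHDF2 against input it called 1 of 6 (3687 and 3373). In the m6A pull-down it called 0 of 4 (1290 and 2009), where Eng received no adjusted p. It called 86 genes in the 4 h and 7 in the 2 h interaction, and gave −0.030 for Tgfbr3 against IgG. Ribosomal protein scaling gave 2 receptors between genotypes at 0 h, 2930 genes at 2 h labelled cKO, −0.42 for Acvr2b in WT and −0.079 labelled cKO at 4 h, and 0.064 for Acvr2b in the 2 h interaction.

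The replicate block gave 3 receptors between genotypes at 0 h, where numbers do not pair (Tgfbr2 1.76, adjusted p = 0.0361; Acvr2a −0.74, adjusted p = 0.0395; edgeR). That fit called 1420 genes higher and 1930 lower. With the block there were 296 genes and 0.010 for Acvr2a in the 4 h interaction, 4745 genes at 2 h in WT, 3587 at 2 h labelled cKO, 0.18 for Tgfbr3 and 0.16 for Acvr2b in the 2 h interaction, 0 receptors and 5373 genes in the m6A pull-down, and 1 receptor, 4402 genes and −0.060 for Tgfbr3 against IgG. Between genotypes, fits of the compared libraries alone gave 2 receptors at 0 h (1090 genes higher and 1216 lower). They gave 1583 genes at 2 h, and 0 receptors and 1756 genes at 4 h. With time they gave 1447 genes at 4 h labelled cKO, 6528 at 2 h in WT, and 0 receptors and 529 genes at 2 h labelled cKO. The titles gave, against input, 1.02 for Tgfbr1, 0.39 for Tgfbr2, 0.42 for Tgfbr3, 0.26 for Acvr1b, −0.77 for Acvr2a, −0.88 for Acvr2b and −1.34 for Ythdf2, and, against IgG, 1 receptor, 5295 genes, 0.52 for Tgfbr1, −0.072 for Acvr2a and −0.58 for Acvr2b. Apart from exchanged groups, fewer libraries or a dropped filter, the cause of these moves was not tested.

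Leaving out a library, or all libraries of a genotype with the same number, gave, between genotypes, 0 to 3 receptors and 397 to 4322 genes at 0 h, 1 to 3 and 500 to 5278 at 2 h, and 0 to 2 and 758 to 5455 at 4 h, the most without replicate 1 labelled cKO and the fewest genes without WT replicate 3. At 4 h in WT there were 3136 to 6975 genes and Tgfbr3 ran from −0.18 to 0.12. At 4 h labelled cKO there were 2287 to 5205 genes, Tgfbr3 from −0.67 to 0.49 and Ythdf2 from −0.58 to 0.67. At 2 h in WT there were 0 to 3 receptors, 760 to 4091 genes and Tgfbr3 from −0.67 to 0.14. At 2 h labelled cKO there were 0 to 2 receptors, 648 to 2822 genes, Tgfbr3 from −0.59 to 0.38, Acvr2b from −1.30 to 0.32 and Ythdf2 from −0.80 to 0.48. The 4 h interaction had 0 to 44 genes, Tgfbr2 from −0.48 to 1.11, Tgfbr3 from −0.57 to 0.59, Acvr2a from −0.32 to 0.23 and Acvr2b from −0.27 to 1.18. The 2 h interaction had 0 to 7 genes, Tgfbr1 from −0.093 to 0.22, Tgfbr3 from −0.43 to 0.53, Acvr2a from −0.39 to 0.093 and Acvr2b from −0.73 to 0.90. The m6A pull-down had 0 receptors, 1824 to 2775 genes and Acvr2a from −0.025 to 0.047. YTHDF2 against input had 1 to 3 receptors and Tgfbr3 from −1.12 to 0.0082, and Tgfbr3 against IgG ran from −0.57 to 0.55.

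Scaling moved the split of all called genes. Between genotypes, 1082 were higher and 1387 lower at 0 h, but 529 and 2287 with ribosomal protein scaling and 1023 and 2429 with limma on TPM. At 2 h the split was 1195 and 1198, but 1927 and 924 with library size alone and 587 and 1923 with ribosomal proteins, and at 4 h it was 1549 and 1278, but 2499 and 954, and 737 and 1899. With time in WT at 4 h it was 2194 and 3402, but 698 and 4412 with library size alone, 342 and 5179 with TPM and 44 and 6016 with ribosomal proteins. Labelled cKO at 4 h it was 1694 and 2528, but 515 and 3169, 278 and 3841, and 32 and 5481. At 2 h it was 509 and 1926 in WT, but 27 and 3474 with ribosomal proteins, and 310 and 1382 labelled cKO, but 35 and 2895. In the m6A pull-down it was 858 and 2023, but 3627 and 1293 with library size alone and 7236 and 770 with TPM. YTHDF2 against input it was 4373 and 2490, but 5980 and 1233 with TPM and 3545 and 3211 with RLE, and against IgG 2040 and 47, but 1752 and 326 with RLE. At these depths Acvr1b and Eng, with 0 to 9 counts per RNA-seq library, were tested between genotypes only without the filter, and 1 or 2 Tgfbr2 counts per WT library at 2 h limit the size of its difference.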
